A study of Mus musculus with 20 samples.

Results

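The serum amyloid A genes of the mouse, Saa1, Saa2, Saa3 and Saa4, were followed in the lungs of dams that had carbon black particles instilled during pregnancy. They were found as every array probe whose gene name was one of these 4 symbols, which gave 4 of 27962 gene names and 6 of the 41174 probes on the array, 2 each for Saa1 and Saa4 and 1 each for Saa2 and Saa3. All 6 were among the 30142 probes kept for testing. To be kept, a probe needed a lung signal clearly over background in 3 or more dams of some group. Both Saa4 probes were kept through the high dose group alone, so their higher signal there is partly a condition of being kept.

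Serum amyloid A proteins are small apolipoproteins carried on high density lipoprotein. Saa1 and Saa2 are the classical acute phase isoforms, made in large amounts by the liver after infection or injury. Saa3 is made mainly outside the liver in mice, by macrophages, adipocytes and epithelial cells among others, and Saa4 is the constitutive isoform. The inducible genes are known to respond to interleukin 1, interleukin 6 and tumour necrosis factor through NF-kB, C/EBP and STAT3 factors.

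The animals were young adult, time-mated female C57BL/6BomTac mice, 5 per group and 1 array per dam. The control group received the water vehicle, and the others received Printex 90 carbon black, an industrial soot-like nanoparticle, at 2.75 µg (low), 13.5 µg (medium) or 67 µg (high) per instillation. Every dam, controls included, was pregnant and had 4 instillations into the trachea, on gestation days 7, 10, 15 and 18, so that the total doses were 0, 11, 54 and 268 µg. Lungs were taken 26 to 27 days after exposure, once the offspring had been weaned. Whole lung RNA, labelled with Cy5, was hybridised together with a universal mouse reference RNA, labelled with Cy3, and each value is the log2 ratio of lung over reference in the authors' deposited table, with no background subtracted.

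On each array 63.3% to 77.8% of the probes had a Cy5 signal well above background. All 7 markers that define lung tissue, among them Sftpc and Scgb1a1, were well above background on all 20 arrays. All 4 groups shared slides 1 to 3, slides 4 and 5 lacked the medium dose, and slide 6 carried 2 medium dose arrays and nothing else. Within the slides that had controls a group always occupied one fixed position, so position and group cannot be told apart. The dams are named by the animal number in the labels. No spot of the 6 probes was saturated or marked as an outlier. In whole lung RNA, more cells of a type and more RNA per cell cannot be told apart.

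Saa3 was the member with the largest difference between high dose and control lungs. It is measured by a single 60-base probe, placed by the file headers' build mm7 at chr7:42888862-42888921 on the minus strand. The probe's accession list in the files also holds a transcript of Saa1, so its letters are set beside those of the 2 Saa1 probes, at chr7:42916901-42916960 and chr7:42916998-42917470 on the same strand of mm7. The last of these spans 473 bases of the genome for 60 bases of probe. Capitals are used in the third line only and mark bases shared with a neighbouring transcript described further on.
Saa3 A_51_P337308: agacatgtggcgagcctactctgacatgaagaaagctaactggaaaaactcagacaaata
Saa1 A_52_P318673: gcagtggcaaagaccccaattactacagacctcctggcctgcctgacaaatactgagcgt
Saa1 A_51_P361650: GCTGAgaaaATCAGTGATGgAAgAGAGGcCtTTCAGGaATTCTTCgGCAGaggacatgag
Over the 13 pairs of probes from different Saa genes, the longest run of letters in common, on either strand, was 5 to 8 bases. Without gaps, at most 18 to 26 of 60 bases matched. No other probe on the array had the same sequence as any of the 6. The probes were not aligned to whole transcripts. These counts therefore cannot show whether the Saa3 probe also binds Saa1 RNA.

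In the high dose dams 60, 62, 63, 64 and 65, the log2 ratio of Saa3 was -2.18, -0.37, 1.42, -0.61 and 0.23. In the control dams 4, 7, 14, 15 and 18 it was -2.52, -2.52, -2.09, -2.95 and -2.51. Of the high dose dams, 4 of 5 lay above every control, and dam 60 lay within the control range. The mean was -0.30 ± 1.31 in high dose lungs and -2.52 ± 0.30 in control lungs (SD, n = 5 each), so the dams also spread more widely at the high dose. The difference was 2.22 ± 0.43 on the log2 scale (SE), or 4.65-fold with a 95% confidence interval of 2.49 to 8.68, at an adjusted p of 0.0164 (limma across all kept probes, Benjamini-Hochberg adjustment). By size it ranked 2 among the 30142 probes.

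Saa3 did not separate the lower doses from control. The low dose dams 25, 27, 28, 31 and 36 had log2 ratios of -2.33, -2.70, -2.46, -1.70 and -2.56. The medium dose dams 46, 47, 48, 49 and 50 had -2.61, -2.19, -2.81, -2.93 and -1.48. Only dam 31 and dam 50 of these 10 lay above the highest control. The low dose difference from control was 0.17 with a 95% interval of -0.73 to 1.07 (limma adjusted p = 0.951), and the medium dose difference was 0.11 with an interval of -0.79 to 1.01 (adjusted p = 0.926). These intervals leave room for differences of about 1 on the log2 scale in either group. They rest on a single spread shared by all groups, as does the SE of the high dose difference. The SD of Saa3 was 0.30 in control, 0.39 in low dose, 0.59 in medium dose and 1.31 in high dose lungs. The shared spread is thus widened by the high dose dams and is narrower than theirs alone. By mean ratio the order was control, medium, low and high, and the first 3 overlapped throughout.

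The lung channel alone showed the same separation of most high dose dams. The median Cy5 spot signal of Saa3 was 715, 3651, 11088, 2454.5 and 5696 intensity units in high dose dams 60, 62, 63, 64 and 65, against 708.5, 716, 925, 551 and 958 in control dams 4, 7, 14, 15 and 18. It averaged 4721 ± 3994 in high dose lungs and 772 ± 169 in control lungs (SD, n = 5 each). The Cy3 signal of the reference RNA stayed between 1554 and 2440 on all 20 arrays. The software's background-subtracted Cy5 signal was scaled to the 75th percentile of each array. It was 2.47 higher in high dose than in control lungs on the log2 scale, or 5.52-fold. The groups did not overlap, but only narrowly, with high dose dam 60 at -0.028 and control dam 14 at -0.030. The exact permutation test gave p = 0.00794, two-sided, which is the smallest value that all groupings of 5 dams against 5 allow. It is 1 of 18 such tests, 6 probes at 3 doses, and is not adjusted for them. Without background subtraction the difference was 2.26 (exact permutation p = 0.0238). Without the scaling it was 2.30 (exact permutation p = 0.0317). In both of these settings the groups overlapped.

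**Figure D1:**
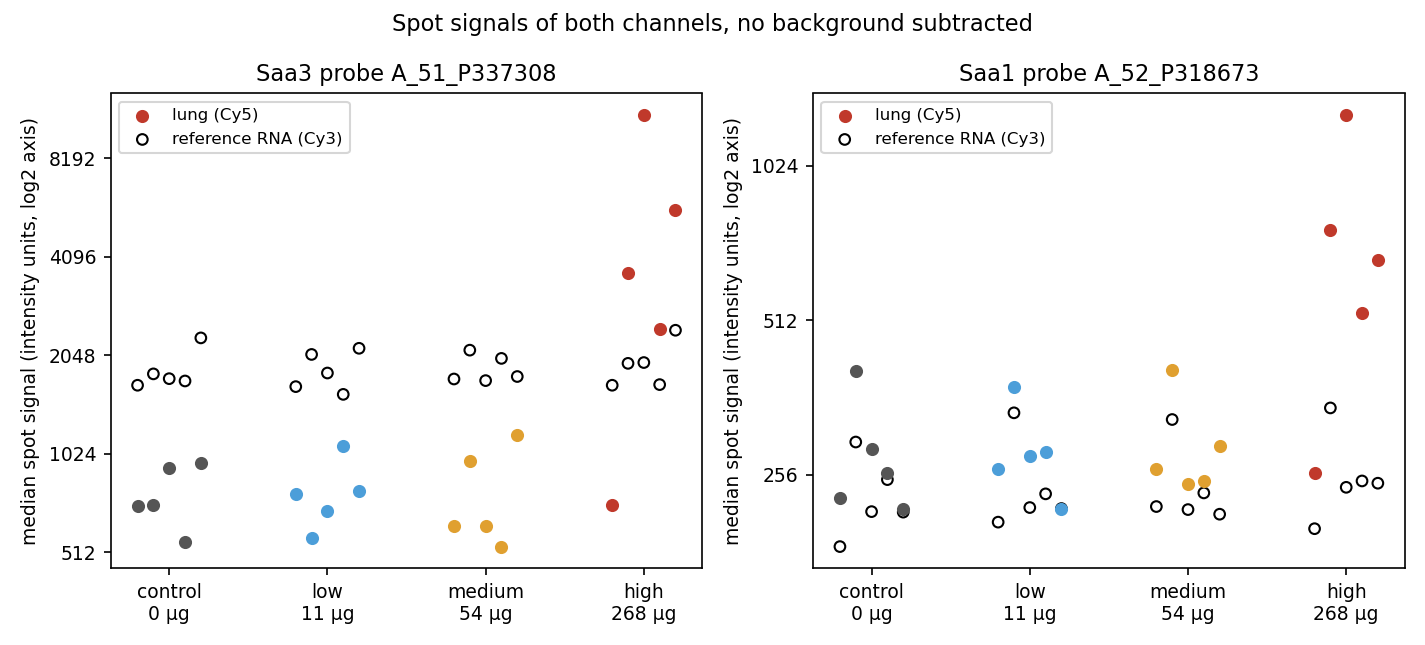
Median spot signal in intensity units (vertical log2 axis, no background subtracted) of the Saa3 probe and the brighter Saa1 probe in each dam, by total dose (horizontal axis); filled points are the lung channel and open points the reference channel on the same array. For Saa3, 4 high dose dams sit between 2454.5 and 11088 and dam 60 sits at 715, among the controls at 551 to 958.

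Saa1 had 2 probes. The brighter one, A_52_P318673, had a Cy5 signal of 220 to 1285 intensity units and was well above background in both channels on all 20 arrays. Its log2 ratio was -0.77, -0.32, 1.10, -0.21 and 0.19 in high dose dams 60, 62, 63, 64 and 65. In control dams 4, 7, 14, 15 and 18 it was -1.19, -0.89, -0.94, -1.47 and -1.46. The groups did not overlap, and dam 60 was again the lowest at the high dose. The mean was -0.0004 ± 0.71 in high dose lungs and -1.19 ± 0.28 in control lungs (SD, n = 5 each). The difference of 1.19 ± 0.23 (SE) corresponds to 2.29-fold, with a 95% interval of 1.63 to 3.21 and a limma adjusted p of 0.0176.

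The brighter Saa1 probe ran from -1.33 to -0.84 in low dose lungs and from -1.22 to -0.58 in medium dose lungs, and both ranges overlapped the controls. The difference from control was 0.14 (95% interval -0.35 to 0.63, limma adjusted p = 0.920) at the low dose and 0.23 (-0.26 to 0.72, adjusted p = 0.689) at the medium dose. The scaled Cy5 signal of this probe was 3.10-fold higher in high dose than in control lungs, with overlap through dam 60 (exact permutation p = 0.0159, two-sided, unadjusted).

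The dimmer Saa1 probe, A_51_P361650, showed a smaller difference in the log2 ratio. Its Cy5 signal was 93.5 to 201 intensity units over a local background of 76 to 88, and it was well above background on 5 of 5 high dose and 2 of 5 control arrays. Its log2 ratio was 0.33, 0.25, 0.56, -0.10 and 0.21 in high dose dams 60, 62, 63, 64 and 65, against -0.06, -0.14, 0.02, -0.18 and -0.17 in control dams 4, 7, 14, 15 and 18. Only dam 64 fell among the controls. The difference was 0.35 ± 0.10 (SE), or 1.28-fold, and did not pass the threshold (limma adjusted p = 0.0689). Its scaled, background-subtracted Cy5 signal was 3.90-fold higher at the high dose, with overlap (exact permutation p = 0.0238, two-sided, unadjusted). Without background subtraction it was 1.51-fold higher (exact permutation p = 0.0159).

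The gap between the Saa1 probes differed between ways of making the ratio. In the dye ratio that the Feature Extraction software computed after subtracting background, the difference between high dose and control was 1.50 for both Saa1 probes, although neither then passed the test (limma adjusted p = 0.132 for the brighter and 0.360 for the dimmer). In that ratio Saa3 differed by 2.35 (adjusted p = 0.126), Saa2 by 1.49 (adjusted p = 0.371), and the Saa4 probes A_51_P142529 and A_52_P404329 by 1.45 (adjusted p = 0.510) and 1.65 (adjusted p = 0.406). With normexp background correction followed by loess, the gap stayed, with 1.15 for the brighter and 0.29 for the dimmer Saa1 probe. In that setting Saa2 differed by 0.53 and Saa4 A_52_P404329 by 0.20, and neither passed the test. The dimmer Saa1 probe passed with the slide as a block (adjusted p = 0.0235).

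**Figure D2:**
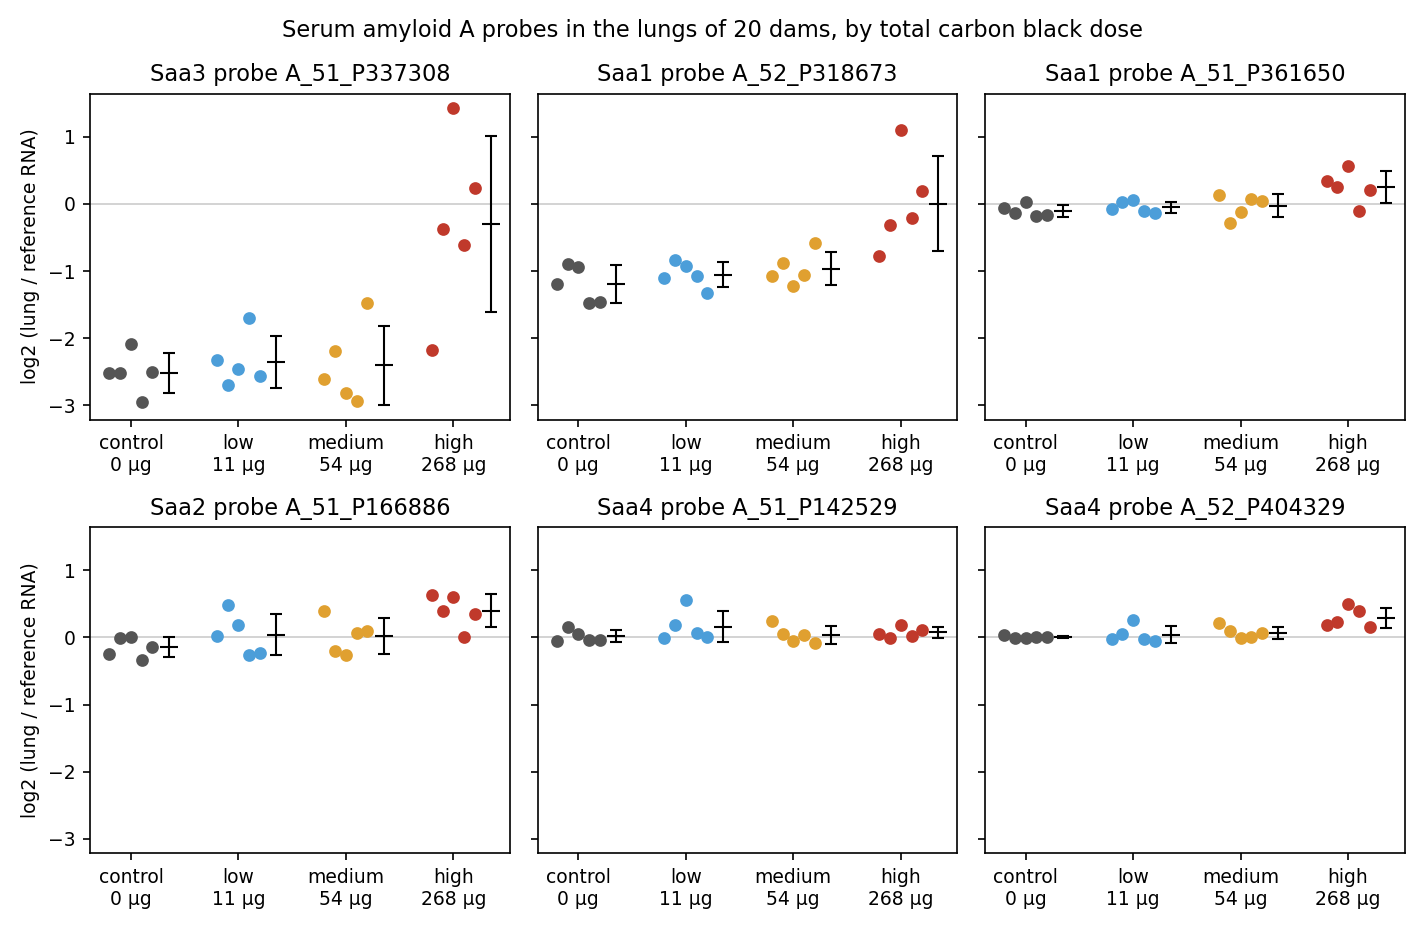
log2 ratio of lung over reference RNA (vertical axis) of each of the 6 probes in each dam, by total carbon black dose (horizontal axis); points are dams, and the black mark with its bar is the group mean ± SD (n = 5). The Saa3 dams at the high dose reach from -2.18 to 1.42, and those of the other 3 groups lie between -2.95 and -1.48.

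Saa2 had 1 probe, A_51_P166886, at chr7:42930366-42930425 of mm7 on the plus strand, with a Cy5 signal of 105.5 to 242 intensity units that was well above background on all 20 arrays. Its log2 ratio was 0.63, 0.40, 0.60, 0.01 and 0.34 in high dose dams 60, 62, 63, 64 and 65. In control dams 4, 7, 14, 15 and 18 it was -0.25, -0.01, 0.01, -0.34 and -0.15. The groups did not overlap, although high dose dam 64 and control dam 14 were equal to the printed precision. The difference was 0.54 ± 0.15 (SE), or 1.46-fold, and did not pass the threshold (limma adjusted p = 0.0663). It passed with the slide as a block (adjusted p = 0.0272) and with the scan date as a block (adjusted p = 0.0465). The scaled, background-subtracted Cy5 signal of Saa2 was 3.34-fold higher at the high dose, with overlap (exact permutation p = 0.0238, two-sided, unadjusted). Without background subtraction it was 1.68-fold higher (exact permutation p = 0.0238).

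The order of the high dose dams differed between Saa2 and Saa3. Dam 60 had the highest Saa2 ratio of the group and the lowest Saa3 ratio. Low dose dam 27 and medium dose dam 46 had Saa2 ratios of 0.48 and 0.40, within the high dose range. Markers of hepatocytes, the main source of Saa2 in the body, varied between dams of every group, with a mean log2 ratio over the 8 kept markers of 0.84 to 1.60 in controls, 1.41 to 3.14 at the low dose, 1.26 to 2.77 at the medium dose and 0.75 to 2.53 at the high dose. In high dose dams 60, 62, 63, 64 and 65 the list mean was 2.53, 0.75, 0.90, 0.90 and 2.34. The Saa2 ratios of the same dams were 0.63, 0.40, 0.60, 0.01 and 0.34. The list mean lay above the control range in dams 60 and 65, within it in dams 63 and 64 and below it in dam 62. The list mean was 2.66 in low dose dam 27 and 2.77 in medium dose dam 46. It was highest, at 3.14, in low dose dam 28, whose Saa2 ratio was 0.19. None of the 8 markers passed the test at any dose against control. Of all probes, 0.00332% passed at the low dose, 0.00332% at the medium and 1.35% at the high dose. At an unadjusted limma p under 0.05, 6 of the 8 were higher at the low dose, where 7.37% of all probes passed. All 8 were positive there, with a median difference of 0.99. At the medium dose 1 was higher and at the high dose 1 was lower, where 14.3% and 17.3% of all probes passed. Of the defining hepatocyte markers, Alb was well above background on all 20 arrays and Ttr on 3 arrays. The part of these markers in the Saa2 values was not tested.

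Saa4 was close to background. Its probes, A_51_P142529 at chr7:42905591-42905650 and A_52_P404329 at chr7:42904493-42904552 of mm7 on the minus strand, had Cy5 signals of 85 to 138 and 84.5 to 121 intensity units. The reference channel of the first was not well above background on any array. Probe A_52_P404329 had log2 ratios of 0.18, 0.23, 0.49, 0.40 and 0.16 in high dose dams 60, 62, 63, 64 and 65. In control dams 4, 7, 14, 15 and 18 the ratios were 0.03, -0.01, -0.01, 0.01 and 0.01. The groups did not overlap, but the Cy5 signal was well above background on 4 of 5 high dose and 1 of 5 control arrays. The difference was 0.29 ± 0.07 on the log2 scale (SE, limma adjusted p = 0.0438). Because the probe was kept through the high dose group alone, this p carries no weight as a test. The call was kept in 7 of the 20 fits that each left out 1 array, and was lost with normexp background correction (adjusted p = 0.294).

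The other Saa4 probe, A_51_P142529, averaged 0.07 ± 0.08 in high dose lungs and 0.02 ± 0.09 in control lungs (SD, n = 5 each), a difference of 0.06 (limma adjusted p = 0.796). Its Cy5 signal was not well above background on any control array and was so on 4 high dose arrays. The mean ratio was 0.16 in low dose and 0.04 in medium dose lungs. With the control signal at background, no fold is given for this probe.

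**Figure D3:**
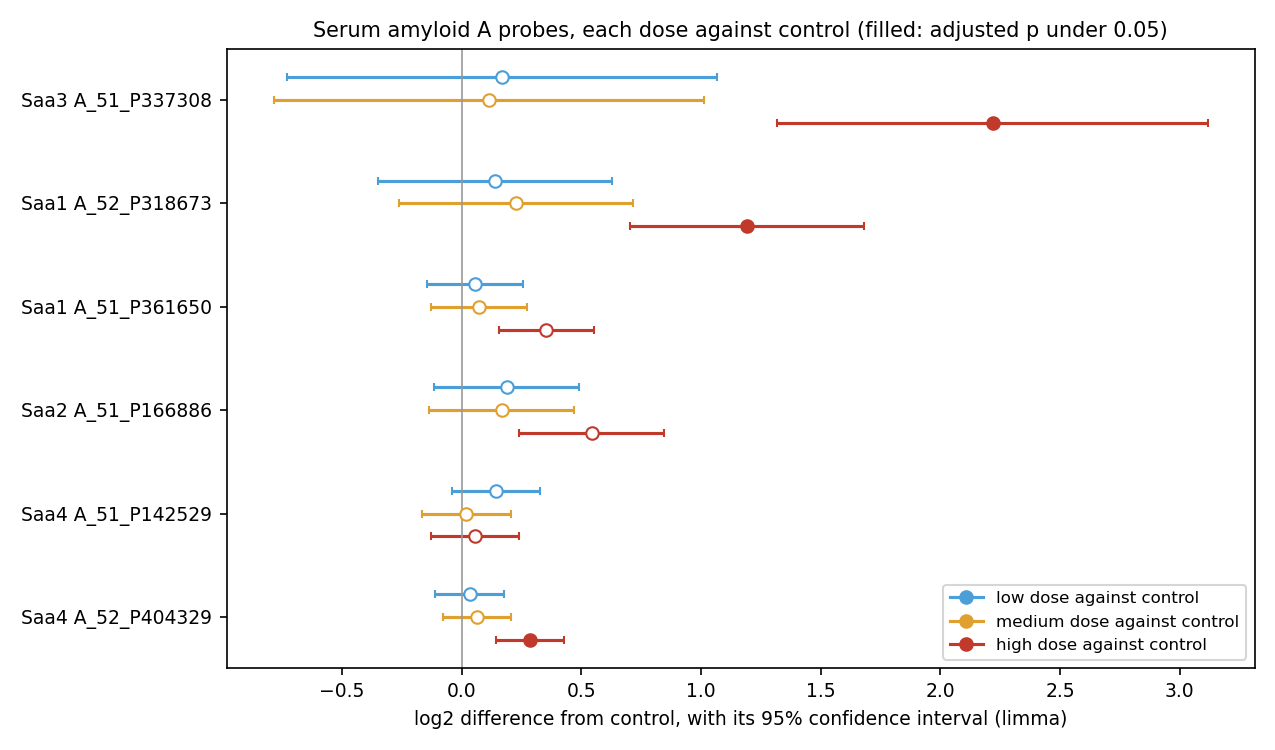
log2 difference from control (horizontal axis) with its 95% confidence interval from limma, for each of the 6 probes (rows) at the low, medium and high dose; filled points passed the test across all kept probes. The filled points are Saa3 at 2.22, Saa1 A_52_P318673 at 1.19 and Saa4 A_52_P404329 at 0.29, all at the high dose; the Saa4 probes were kept through that group alone.

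At the high dose, 2 of the 4 probes of Saa1, Saa2 and Saa3 were called higher than in control lungs, those of Saa3 and Saa1 (A_52_P318673), and none was called lower. The Saa4 probes are left out of these counts, since only the high dose group brought them past the filter. Among all kept probes 1.35% were called in either direction, with 0.71% higher and 0.644% lower. At an unadjusted p under 0.05, 4 of the 4 probes and 17.3% of all probes passed. The high dose dams lay above all controls for 2 of the 4 probes, Saa1 (A_52_P318673) and Saa2, and for 1.83% of all kept probes. No member was called at the medium or the low dose against control, where limma adjusted p was at least 0.627 and the share of all probes called was 0.00332% at each dose. None reached an unadjusted p under 0.05 either, as 14.3% of all probes did at the medium and 7.37% at the low dose.

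Set against the lower doses in place of control, no member was called at the high dose. Saa3 was 2.10 ± 0.43 higher in high dose than in medium dose lungs (SE, limma adjusted p = 0.0766) and 2.05 ± 0.43 higher in high dose than in low dose lungs (adjusted p = 0.0672). The brighter Saa1 probe was 0.97 ± 0.23 higher against the medium dose (adjusted p = 0.153) and 1.05 ± 0.23 higher against the low dose (adjusted p = 0.0928). The shares of all probes called were 0.0896% against the medium and 0.129% against the low dose. At an unadjusted p under 0.05, the 4 probes of Saa1, Saa2 and Saa3 passed in each comparison, as did 9.8% and 9.92% of all probes. Of the 20 fits that each left out 1 array, 1 gave a call for either probe in these comparisons, the fit without high dose dam 60, the lowest of its group for both. Over the 20 fits, adjusted p against the medium dose was 0.000989 to 0.252 for Saa3 and 0.0218 to 0.397 for Saa1. Against the low dose it was 0.00135 to 0.175 for Saa3 and 0.0115 to 0.196 for Saa1. Without dam 60, Saa3 differed by 2.57 from the medium dose and by 2.52 from the low dose, and Saa1 by 1.16 and by 1.24.

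Within each of the 5 slides that held both groups, the high dose array lay above its control for Saa3, by 0.35, 2.15, 3.51, 2.34 and 2.74 on slides 1 to 5. The brighter Saa1 probe was higher on the same slides by 0.42, 0.57, 2.05, 1.26 and 1.66. Slide 1, with dam 60, gave the smallest difference for both. Saa2 was higher in the high dose array on 5 of 5 slides, by 0.35 to 0.88. The medium dose array lay above its control for Saa3 on 1 of 3 slides, and the low dose array on 2 of 5.

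The call for Saa3 and for the brighter Saa1 probe depended on how the ratio was made. Over 17 alternatives the difference between high dose and control was 2.19 to 2.47 for Saa3 and 1.15 to 1.63 for Saa1, and each was called in 12 of them. With median spot signals corrected by normexp and loess, Saa3 differed by 2.19 (limma adjusted p = 0.0674) and Saa1 by 1.15 (adjusted p = 0.0925). On the array of low dose dam 27, 1 spot far below its background distorted the background model. With the model refitted without it, the differences were the same and adjusted p was 0.0359 for Saa3 and 0.0421 for Saa1. Each of the 2 calls was lost in 1 of 20 fits that left out 1 array, in both cases that of control dam 15, where adjusted p was 0.0526 for Saa3 and 0.0558 for Saa1. Fitted on the 10 arrays of high dose and control dams alone, adjusted p was 0.0919 for Saa3 and 0.102 for Saa1.

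**Figure D4:**
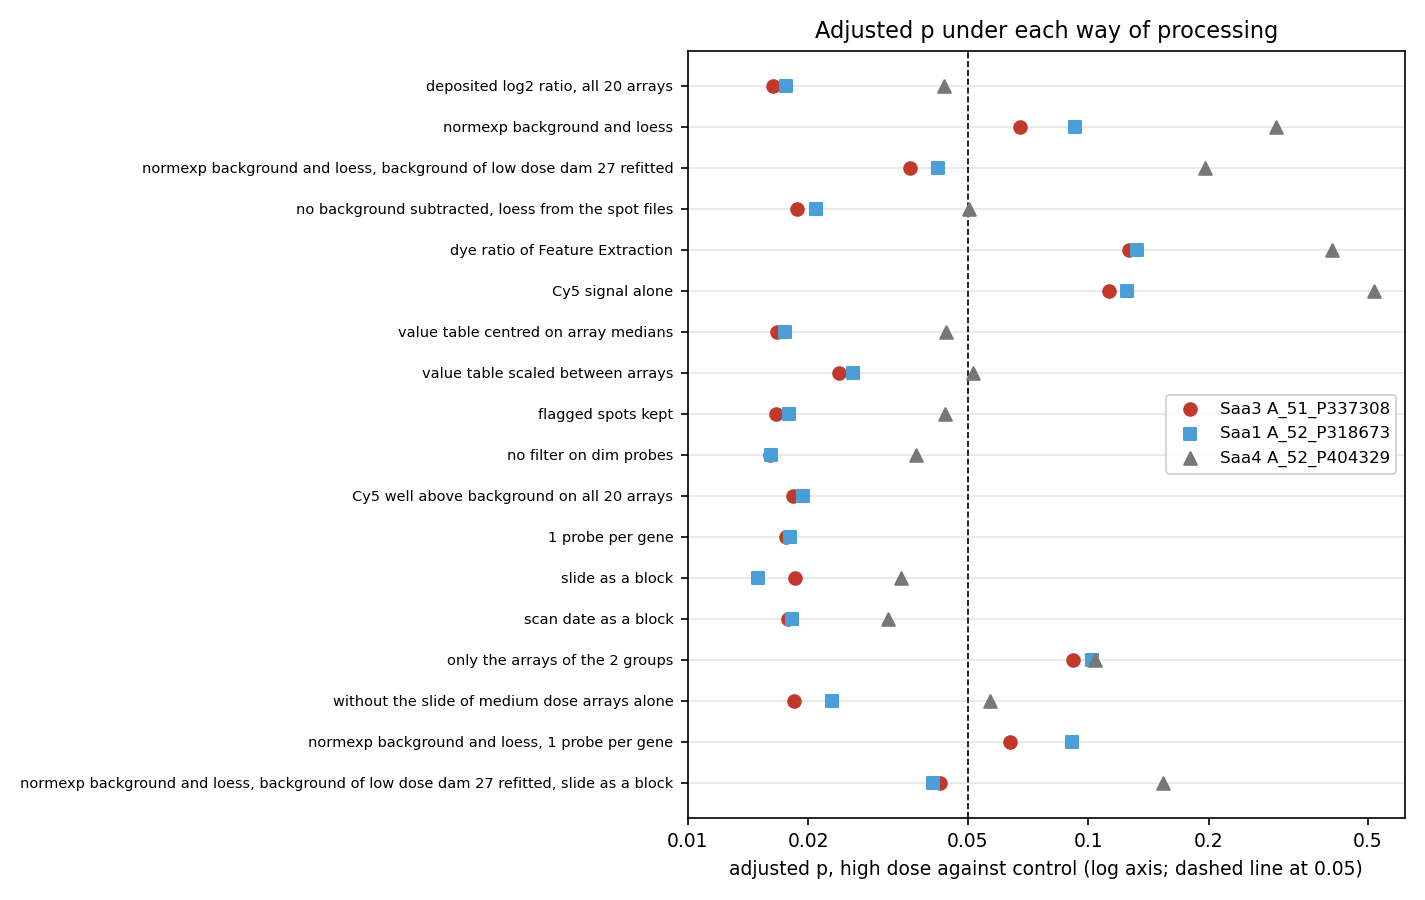
limma adjusted p (horizontal log axis) for high dose against control under each way of processing (rows), for Saa3, the brighter Saa1 probe and Saa4 A_52_P404329; the dashed line marks the threshold of 0.05. Saa3 and Saa1 lie left of the line except with normexp background (with all probes or 1 probe per gene), the software's dye ratio, the Cy5 signal alone and the 2 groups alone; a row with no Saa4 point did not test that probe.

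Saa1 and Saa3 varied together between dams. The log2 ratios of the Saa3 probe and the brighter Saa1 probe had Pearson r = 0.942 and Spearman rho = 0.752 over the 20 dams (permutation p = 1e-05, the smallest that 100000 permutations can give, and 0.00028). The permutations moved dams freely across dose groups, so both p-values also reflect that both probes were higher at the high dose. Without the 2 dams farthest from the median of Saa3, r was 0.831. Because 4 high dose dams lie apart from the rest, the relation was also taken over the 15 dams of the control, low and medium groups, where r was 0.572 (permutation p = 0.0268) and rho was 0.457 (permutation p = 0.0898). After each group's mean was removed, r over all 20 dams was 0.858 (permutation p = 6e-05). Over the 15 dams of the control, low and medium groups it was then 0.574 (permutation p = 0.0245). Both values of a dam come from the same array and extract. Whether the Saa3 probe also picks up Saa1 RNA was not tested. The r with Saa3 over the 20 dams was 0.733 for Saa4 A_52_P404329, 0.654 for the dimmer Saa1 probe, 0.491 for Saa2 and 0.065 for Saa4 A_51_P142529. With the group means removed, these became 0.335 for Saa4 A_52_P404329, 0.236 for the dimmer Saa1 probe, -0.040 for Saa2 and 0.078 for Saa4 A_51_P142529. Both Saa4 probes were kept through the high dose group alone, where Saa3 was also higher. Their r with Saa3 over the 20 dams is thus partly a condition of being kept and carries no weight.

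**Figure D5:**
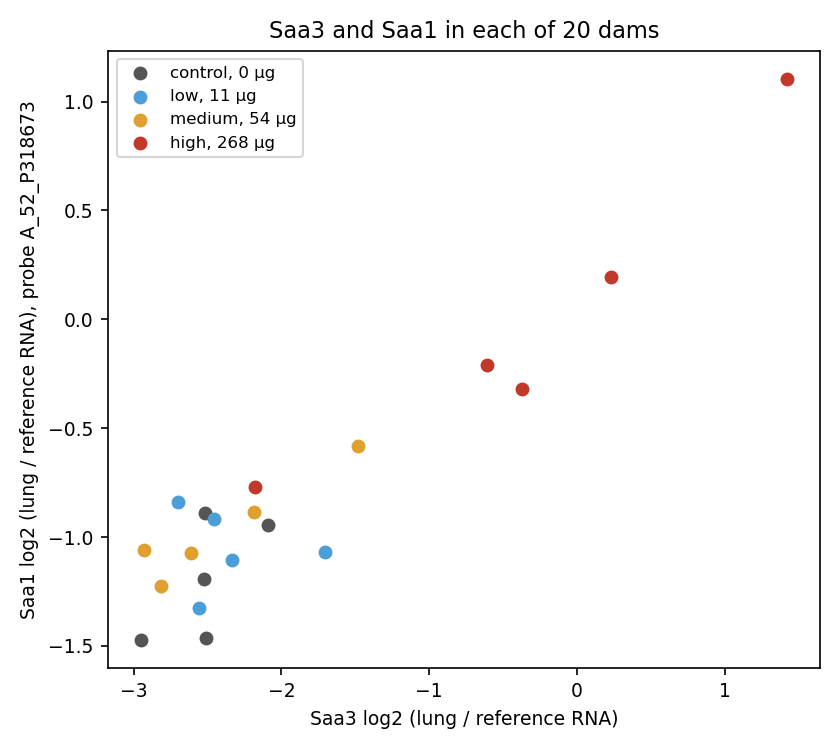
log2 ratio of the brighter Saa1 probe (vertical axis) against that of Saa3 (horizontal axis), 1 point per dam, coloured by dose group. High dose dam 63 is at the top right with 1.42 for Saa3 and 1.10 for Saa1, and dam 60 lies at -2.18 for Saa3, within the range of the other groups.

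The genes with a pattern most like that of Saa3 were taken as the 10 with the highest Pearson r over the 20 dams, among 15544 genes with a symbol. They were Msr1 (r = 0.927), Ly6f (0.918), Csf2 (0.907), Malt1 (0.895), Cxcl5 (0.892), Ccl9 (0.892), Ccl7 (0.891), Tgm1 (0.891), Lemd1 (0.890) and Noxo1 (0.881). Msr1 encodes a macrophage scavenger receptor, Csf2 a growth factor of myeloid cells, and Cxcl5, Ccl7 and Ccl9 are chemokines. With the group means removed, r was highest for Msr1 (0.835), Ccl9 (0.826), 4933414I15Rik (0.793) and Ly6f (0.786).

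Genes of the signalling that acts on the Saa genes, inducers and inhibitors together, were followed as a list. Of 25 listed, 22 were measured with the brightest probe of each gene. Of these, 2 (9.09%) were called higher in high dose than in control lungs, against 0.551% of all genes with a symbol. At an unadjusted limma p under 0.05, 7 of the list were higher and 0 lower. Among the 15619 genes with a symbol, 1014 were higher and 1431 lower. Il1rn, the interleukin 1 receptor antagonist, averaged 0.69 in high dose lungs and 0.18 in control lungs, a difference of 0.52 ± 0.12 (SE, limma adjusted p = 0.0375). Osmr, a receptor subunit for oncostatin M, averaged -0.18 in high dose lungs and -0.56 in control lungs, a difference of 0.38 ± 0.09 (adjusted p = 0.0482). Next by p came the cytokine Tnf, with a difference of 0.30 (adjusted p = 0.0889), and the transcription factor Stat3, with 0.32 (adjusted p = 0.0893). Il6 differed by 0.51 (adjusted p = 0.0964) and Il1b by -0.27 (adjusted p = 0.708). The median difference of the list was 0.14, against -0.02 over the 15619 genes with a symbol, of which 0.551% were called higher. No gene of the list was called at the low or medium dose. At each of these doses 0% of all genes with a symbol were called higher and 0.0064% lower.

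No receptor or lipoprotein partner of serum amyloid A was called. Of all genes with a symbol, 0.551% were called higher and 0.621% lower at the high dose against control. At such shares the lack of a call says little about this list. Of 19 listed, 18 were measured, with a median difference between high dose and control of 0.03. Fpr2, a formyl peptide receptor that binds serum amyloid A, averaged 2.08 in high dose lungs and 2.71 in control lungs. The difference was -0.64 ± 0.16 (SE, limma adjusted p = 0.0532). Cd14, a co-receptor for lipopolysaccharide, differed by 0.71 (adjusted p = 0.118), Lcat, an enzyme of high density lipoprotein, by 0.21 (adjusted p = 0.157), and Fpr1 by -0.31 (adjusted p = 0.293).

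Of 28 other acute phase genes, 24 were measured and 2 were higher in high dose than in control lungs, where 0.551% of all genes were. They were C3, the central complement component, with a difference of 0.71 ± 0.15 (SE, limma adjusted p = 0.0205), and Lcn2, an iron-scavenging lipocalin, with 1.08 ± 0.22 (adjusted p = 0.0228). Il33, an alarmin cytokine, differed by 0.55 (adjusted p = 0.0832) and the plasma carrier Orm2 by 0.83 (adjusted p = 0.118). The median of the list was 0.40, and 22 of its 24 members were positive, where 43.9% of all genes were. At the low dose against control 18 were positive, with a median of 0.18, where 48.3% of all genes were. At the medium dose against control 13 were, with a median of 0.06, where 50.8% of all genes were. For high against low dose 13 were positive, with a median of 0.03, where 44.2% of all genes were. No member was called at the low or medium dose, where 0% of all genes were called higher and 0.0064% lower.

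Markers of 2 cell types differed at the high dose. Of 10 macrophage markers, 3 were higher in high dose than in control lungs, Trem2 by 0.96 (limma adjusted p = 0.0022), Mmp12 by 0.98 (adjusted p = 0.0178) and Msr1 by 0.84 (adjusted p = 0.041), and Siglecf, a marker of alveolar macrophages, was lower, with a difference of -0.93 (adjusted p = 0.00435). Of all genes with a symbol, 0.551% were called higher and 0.621% lower. The mean over the macrophage list was 1.61 to 1.99 in high dose and 1.43 to 1.97 in control lungs. Of 9 kept neutrophil markers 1 was lower, Camp, with a difference of -1.33 (adjusted p = 0.0293), and the list mean was 1.76 to 2.40 in high dose and 2.27 to 3.20 in control lungs. The lower values were not particular to the high dose. The median neutrophil difference from control was -0.60 at the low, -0.43 at the medium and -0.35 at the high dose. Siglecf differed by -0.58 at the low (limma adjusted p = 0.595) and -0.51 at the medium dose (adjusted p = 0.174). At each of these 2 doses 0.0064% of all genes with a symbol were called lower. No adipocyte, fibroblast, type 2 cell or airway secretory marker was called, and of 5 milk protein genes only Lalba was kept. The adipocyte list mean was 1.10 to 4.50 in high dose and 1.50 to 3.51 in control lungs. The part of these cell types in the Saa values was not tested.

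The array also held a probe, A_52_P525348, for a transcript described as serum amyloid A but filed under an Ensembl transcript name, so it is not a member. It was placed between Saa4 and Saa1, at chr7:42911087-42911575 of mm7. In the RefSeq gene order of GRCm38.p6, Saa3, Saa4, Saa1 and Saa2 lie together on chromosome 7, with the pseudogene Saa-ps between Saa4 and Saa1. The probe shares 40 of 50 aligned bases, in capitals, with the dimmer Saa1 probe printed above.
Transcript A_52_P525348: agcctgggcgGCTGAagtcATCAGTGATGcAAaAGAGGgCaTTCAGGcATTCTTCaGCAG
Its Cy5 signal was 84 to 97 intensity units and not well above background on any of the 20 arrays, high dose ones included.

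The promoters of the 3 genes that the liver or lung can induce are shown because Saa1 and Saa3 varied together between dams, and because Saa1 and Saa2 are near copies of each other there. They are the 250 bases before the transcript start in RefSeq (GRCm38.p6), at chr7:46742981-46743230 on the minus strand for Saa1, chr7:46751583-46751832 on the plus strand for Saa2 and chr7:46715677-46715926 on the minus strand for Saa3. Capitals mark matches, on either strand, to TTGCNNAA, a C/EBP-like pattern. The windows were also searched on both strands for the 10-base consensus of NF-kB and for TATAAA, the TATA box.
Saa1: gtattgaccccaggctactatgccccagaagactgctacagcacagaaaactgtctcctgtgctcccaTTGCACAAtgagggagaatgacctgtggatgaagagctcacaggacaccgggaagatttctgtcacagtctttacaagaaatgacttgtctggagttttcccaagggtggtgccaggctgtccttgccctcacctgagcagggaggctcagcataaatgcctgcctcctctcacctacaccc
Saa2: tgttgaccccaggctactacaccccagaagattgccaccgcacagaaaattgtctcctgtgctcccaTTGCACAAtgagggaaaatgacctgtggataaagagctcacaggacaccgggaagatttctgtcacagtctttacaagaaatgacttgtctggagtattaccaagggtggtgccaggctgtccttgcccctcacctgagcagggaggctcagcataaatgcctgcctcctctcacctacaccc
Saa3: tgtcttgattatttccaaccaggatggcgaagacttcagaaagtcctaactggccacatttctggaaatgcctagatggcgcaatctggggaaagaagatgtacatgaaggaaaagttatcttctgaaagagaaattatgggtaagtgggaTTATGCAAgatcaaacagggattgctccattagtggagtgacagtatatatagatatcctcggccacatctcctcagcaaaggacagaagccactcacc
The NF-kB consensus and TATAAA were in none of the 4 Saa windows, and in 7.3% and 12.4% of 32851 promoter windows of the same length. The C/EBP-like pattern was found once each in Saa1, Saa2 and Saa3, in 2 places in Saa4, and in 9.6% of all windows. The Saa1 and Saa2 windows were identical at 238 of 251 aligned positions (94.8%), and the Saa3 window matched that of Saa1 at 48.2%. A match of letters is a description of the window and does not show binding.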

How the data were processed

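Lung RNA of 20 dams was hybridised on two-colour Agilent 4x44K arrays, lung in Cy5 and universal reference RNA in Cy3, per the labels' protocols. Spot files deposited by the authors give signals and backgrounds in intensity units and a log10 dye ratio, from Feature Extraction. Per the file headers, 18 arrays used version 9.5.1.1 with build mm7, and 2 medium dose arrays used 10.1.1.1 with build mm8. The authors also deposited a table of log2 ratios with no statement, in the sources used here, of how it was normalised. Its columns correlated at 0.962 to 0.993 with the unsubtracted log2 ratio of the same array and had medians of -0.05 to -0.0315, which gave its direction (lung over reference) and centring.

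Spots of a probe were averaged without outlier flags, and probes well above background in Cy5 on at least 3 arrays of a group and valued on at least 16 arrays were kept. One model over all 20 arrays was fitted with limma 3.58.1 (lmFit, eBayes), and 5 contrasts were tested two-sided with Benjamini-Hochberg adjustment over 30142 probes at a threshold of 0.05. P-values measure the spread between dams. The fit was tested on simulated normal data in which a probe had the same spread in all groups. That test does not cover probes whose spread differed between groups, such as Saa3. Lung channel signals were compared by exact permutation over dams. The number of arrays limits the precision. Named genes are all Saa probes, the 10 genes most like Saa3 by r, and the 4 genes of each list with the lowest p for high dose against control. Il6, Il1b and the macrophage and neutrophil markers beyond that were named after their values were seen. The members and lists were chosen with earlier results of these data known. Probe names were updated through RefSeq gene tables (22951 by accession, 6659 by symbol, 3109 by synonym, 8455 unmatched). Alternatives were other background corrections, normalisations, filters, blocks and samples, and omission of each array; 2 were added after the data were seen.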

Additional observations from a re-analysis of the deposited data

How the results depend on the processing

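No paired analysis was possible because no animal number is shared between groups; slides 1 to 5 each held 1 control, 1 low and 1 high dose array, and the slide was fitted as a block in its place, where Saa3 (2.22, limma adjusted p = 0.0185) and Saa1 A_52_P318673 (1.19, adjusted p = 0.0149) kept their calls at the high dose against control. Of 1111 alternative values for 48 member results, 1049 kept their direction and side of the threshold. For high dose against control with normexp background and loess, the differences were 2.19 for Saa3 and 1.15 for Saa1 A_52_P318673, neither called, and with 1 probe per gene (added after the data were seen) 2.19 and 1.15, again not called. The software's dye ratio gave 2.35 and 1.50, and the Cy5 signal alone 2.47 and 1.63. The 2 groups alone gave 2.22 and 1.19. None of these was called, and the cause was not tested. The fit of the 2 groups alone had fewer arrays and also took the low and medium dose dams out of the shared spread. Saa4 A_52_P404329 lost its call with normexp (0.20), the refit of dam 27 (0.20), that refit with slide as a block (0.20, added), no background subtracted (0.28), the dye ratio (1.65), Cy5 alone (2.12), scaling (0.29), the 2 groups alone (0.29) and omission of slide 6 (0.29). Saa1 A_51_P361650 with slide as a block (0.35), and Saa2 with slide (0.54) or scan date (0.54) as a block, gained a call.

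Differences near 0 changed sign. At the medium dose against control these were Saa1 A_51_P361650 with slide (-0.059), scan date (-0.0021) and the refit with slide (-0.073), Saa2 with slide (-0.0071) and the refit with slide (-0.016), and Saa3 without slide 6 (-0.018) and in the refit with slide (-0.0086). Saa4 A_51_P142529 turned to -0.0070 against the medium dose without slide 6, and to 0.47 and 1.09 against the low dose in the dye ratio and Cy5 alone. For the lung channel without background subtraction, Saa2 at the medium dose (0.45), and at the low dose Saa1 A_51_P361650 (0.28), Saa4 A_51_P142529 (0.32) and Saa4 A_52_P404329 (0.25), passed an unadjusted exact permutation test that they had missed.

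Leaving out 1 array at a time, high dose against control ranged from 1.79 to 2.69 for Saa3, 0.92 to 1.39 for Saa1 A_52_P318673, 0.28 to 0.44 for Saa1 A_51_P361650, 0.49 to 0.64 for Saa2 and 0.24 to 0.32 for Saa4 A_52_P404329. Against the medium and low dose, Saa3 ranged from 1.67 to 2.57 and 1.62 to 2.52, and Saa1 A_52_P318673 from 0.69 to 1.16 and 0.78 to 1.24. Against control, Saa3 at the medium dose ranged from -0.12 to 0.25, Saa4 A_51_P142529 at the medium dose from -0.031 to 0.055, and Saa4 A_52_P404329 at the low dose from -0.021 to 0.059. Saa4 A_51_P142529 at the high against the low dose ranged from -0.13 to 0.011. Over the whole array, 408 probes were called at the high dose against control, and 9 (Cy5 alone) to 1177 (slide as a block) under the alternatives. At 84.5 to 138 intensity units over a background of 75 to 92, the Saa4 probes give no levels that can be told from background in most dams.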
